A study of Mus musculus with 10 samples.

Results

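Basement membranes are thin sheets of extracellular matrix that surround each adipocyte and line each capillary of adipose tissue. Laminins, trimers of an alpha, a beta and a gamma chain, form the sheet that touches the cell. Nidogens link laminin to collagen IV, and the heparan sulfate proteoglycans perlecan and agrin bind laminin and growth factors. The 10 genes of this layer described here, of 56748 genes counted, were chosen by name: the laminin alpha chains Lama2, Lama4 and Lama5, the beta chains Lamb1 and Lamb2, the gamma chain Lamc1, the nidogens Nid1 and Nid2, and the proteoglycans Hspg2 (perlecan) and Agrn (agrin). Each of the 10 genes had 1 row in the count table, and all 10 were among the 14270 genes tested.

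The samples were primary adipocytes grown from the inguinal stromal vascular fraction, the non-adipocyte cells of that fat depot, of male mice 6 to 8 weeks old and put through adipogenic differentiation over 6 to 8 days. The 5 control libraries came from Fam20c-flox mice and the 5 KO libraries from Fam20c-flox/Adipoq-Cre mice, so both groups carry the floxed allele of the secretory kinase Fam20c and the KO group alone carries Cre. Adipoq drives Cre in adipocytes, so the other cells of these cultures should keep Fam20c. The comparison asks which transcripts differ when adipocytes lose Fam20c. This kinase acts on proteins that, like the products of these 10 genes, pass through the secretory pathway. No group carries Cre without the floxed allele, so effects of Cre and of Fam20c loss cannot be told apart. The labels do not say whether libraries of a group came from separate mice, and p-values then measure the spread between these libraries.

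Total counts ranged from 18949106 to 26237825 per library. Fam20c was lower in KO cultures, with a difference of -28.9% (10.2 ± 1.29 against 7.30 ± 0.449 CPM, CPM being the count scaled to library size; SD, n = 5 each; adjusted p = 0.0137 by the quasi-likelihood test of edgeR, Benjamini-Hochberg adjustment, as for all adjusted p-values below), with no overlap between groups. Adipocyte markers were high in every library, with a sum of 41630.5 to 45700 CPM over 13 genes. Endothelial markers were present in both groups and lower in KO, with summed levels of 226 to 271 CPM for controls and 107 to 148 CPM in KO libraries. Along the first principal component, with 23.5% of the variance, control library 4 (21.7) and KO library 1 (24.2) lay highest. The other controls lay between -14.8 and -11.5, and the other KO libraries between -4.12 and 8.59.

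None of the 10 basement membrane genes passed an adjusted p of 0.05 between KO and control. The same limit called 1.86% of all tested genes lower and 0.308% higher in KO. At an unadjusted p under 0.05, 2 of the 10 were lower (Lama5 and Nid2) and 0 were higher, against 7.46% and 4.43% of all tested genes. DESeq2's Wald test and limma voom also called 0 of the 10 after adjustment, with 3 and 2 lower and 0 higher at an unadjusted p under 0.05. The 5 KO libraries overlapped the 5 control libraries for each of the 10 genes, whereas 2.66% of tested genes had all KO libraries lower and 1.31% had all higher. The log2 fold changes ran from -0.33 to 0.07, with 7 of 10 below 0 and a median of -0.10. The median was -0.0551 without control library 4, -0.0552 without KO library 3 and -0.0271 without both. Over all tested genes, 50.3% were below 0 and the median was 0.00. The 95% interval of each of the 10 genes lay between -35.7% and 24.8%, so the intervals contained no 2-fold change in either direction.

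**Figure D1:**
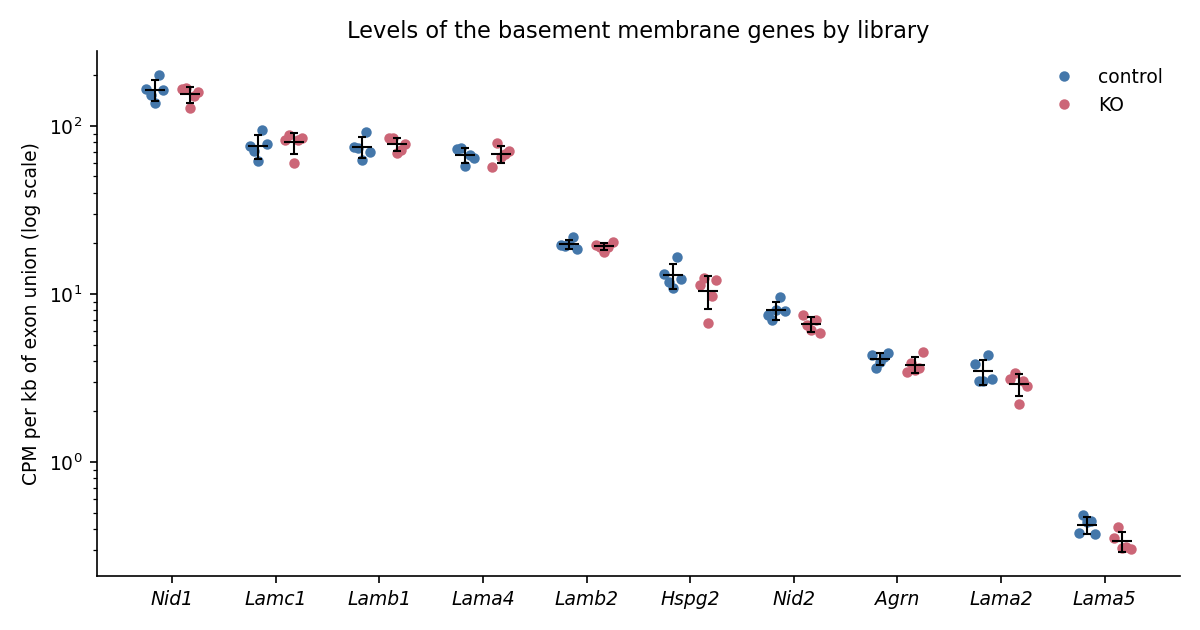
Level of each basement membrane gene in CPM per kb of its exon union (log axis), ordered by the control mean. Points are the 5 control (blue) and 5 KO (red) libraries, and black marks give mean and SD. Control means run from 164 for Nid1 to 0.425 for Lama5, and the groups overlap for every gene.

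The laminin composition of the cultures was dominated by Lama4, Lamb1 and Lamc1. In control libraries, levels divided by exon length were 67.0 ± 6.54 CPM per kb for Lama4, 74.9 ± 10.9 for Lamb1 and 76.0 ± 12.1 for Lamc1 (SD, n = 5). These neighbours in the order of levels overlapped between libraries. The ratio of Lamb1 to Lamc1 per kb was 0.989 ± 0.0571 in control and 0.986 ± 0.108 in KO libraries, and that of Lama4 to Lamc1 was 0.894 ± 0.127 and 0.865 ± 0.144. With the longest annotated transcript as the length, Lama4 and Lamb1 moved up to 134 and 128 CPM per kb, while Lamc1 was at 82.5, so both the order and the ratios of these chains rest on the length that is used.

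Nid1 was the most abundant of the 10 genes, at 164 ± 24.0 CPM per kb in control libraries, 2.16 times Lamc1. Lamb2 followed the main laminin chains at 19.8 ± 1.16 CPM per kb, then Hspg2 at 12.9 ± 2.22, Nid2 at 7.98 ± 0.956, Agrn at 4.11 ± 0.341 and Lama2 at 3.48 ± 0.592. Agrn and Lama2 overlapped, and changed places with the other length. At every other step from Lama4 down the order, the control libraries of the neighbouring genes did not overlap. Lama5 was the lowest, at 0.425 ± 0.0493 CPM per kb on 82 to 148 counts per control library. The level of Nid1 per kb was 386 times that of Lama5.

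The promoters of these genes fell into windows rich and poor in G and C. RefSeq (GRCm38.p6) gave windows before the start site for 7 of the 10 genes. Lama4, Lamc1 and Nid2 had no entry. The GC box GGGCGG, read on both strands in the 250 bases before the start, was present for 5 of these 7 genes and in 32.7% of all 32851 windows. CCAAT was present for 2 (33.8% of all windows), GGAAGT, a core of ETS factor sites, for 2 (19.7%), TATAAA for 0 (12.4%) and TGACTCA, the AP-1 site, for 0 (4.46%). A match of these letters does not show binding. A gene was counted if any of its windows matched, while the shares are over single windows. GC content ran from 43.6% (Lamb2) to 83.6% (Agrn, with 12 GC boxes). Agrn had a further window of 60.8% G and C with 2 GC boxes, whose start was not found in its transcripts. The windows of 3 genes are given below, chosen for their levels: Hspg2, whose level varied most between libraries, Nid1, the most abundant gene, and Lamb2, whose level varied least. Capitals mark GC boxes on either strand, of which there are 5, 1 and 0.
Hspg2, chr4:137468553-137468802 (plus strand, 70% G and C): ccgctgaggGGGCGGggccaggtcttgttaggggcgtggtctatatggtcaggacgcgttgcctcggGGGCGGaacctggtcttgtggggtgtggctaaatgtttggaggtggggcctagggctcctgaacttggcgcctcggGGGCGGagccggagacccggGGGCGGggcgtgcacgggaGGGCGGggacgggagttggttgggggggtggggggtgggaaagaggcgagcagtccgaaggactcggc
Nid1, chr13:13437352-13437601 (plus strand, 64.4% G and C): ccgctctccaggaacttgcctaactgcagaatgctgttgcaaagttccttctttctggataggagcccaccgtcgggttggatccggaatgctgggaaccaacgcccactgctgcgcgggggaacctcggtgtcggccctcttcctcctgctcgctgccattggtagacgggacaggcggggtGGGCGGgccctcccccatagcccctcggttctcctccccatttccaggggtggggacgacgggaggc
Lamb2, chr9:108479612-108479861 (plus strand, 43.6% G and C): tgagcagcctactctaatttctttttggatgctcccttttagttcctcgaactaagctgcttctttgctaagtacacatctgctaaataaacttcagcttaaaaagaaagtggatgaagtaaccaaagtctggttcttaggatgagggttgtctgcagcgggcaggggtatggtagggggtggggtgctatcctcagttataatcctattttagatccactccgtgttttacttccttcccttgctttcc

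Lama4 (ENSMUSG00000019846.12, chromosome 10, 38965515 to 39110188, GRCm38) encodes a laminin alpha chain found around adipocytes and in vessel walls. It had 874, 886, 693, 814 and 773 CPM across control libraries 1 to 5, against 688, 951, 788, 817 and 854 CPM across KO libraries 1 to 5. The KO libraries lay on both sides of the control range, with 1 below and 1 above all controls. The mean was 808 ± 78.9 CPM for controls and 819.5 ± 96.0 CPM for KO (SD, n = 5), and the log2 fold change was 0.02 (with its standard error, SE, at 0.0851, adjusted p = 0.969). The 95% interval of the difference ran from -10.8% to 15.2%, and the sign of the point estimate turned negative without control library 3 (-0.03) or KO library 2 (-0.03).

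Lama2 (ENSMUSG00000019899.18, chromosome 10, 26980036 to 27619758), the alpha chain of laminin in muscle and nerve, was present at 56.9 ± 9.67 CPM for controls and 47.7 ± 7.22 CPM for KO (SD, n = 5). The log2 fold change of -0.25 (SE 0.122, 95% interval from -30.1% to 0.937%) did not pass (unadjusted p = 0.0610, adjusted p = 0.456 by edgeR). At an unadjusted p under 0.05 it was lower by DESeq2's Wald test and not by limma voom. By edgeR it was lower at that level in some alternatives, among them those without control library 2, 3 or 5 or KO library 2. With 1 library left out the estimate ran from -0.31 (without KO library 2) to -0.16 (without control library 4). Control library 4 was the highest at 71.2 CPM and KO library 3 the lowest at 36.2 CPM. The added fit without both gave -0.07, and leaving out these extremes must move the estimate towards 0. Without control library 4 and KO library 1, also added, it was -0.18. Exons of Lama2 share 631 bases with an antisense gene, and the strand setting of the counting is not given in the sources used here.

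Lama5 (ENSMUSG00000015647.10, chromosome 2, 180176373 to 180225859) encodes a laminin alpha chain of vessels and epithelia and had the lowest point estimate of the 10 genes. Control libraries 1 to 5 had 4.30, 5.55, 5.03, 5.08 and 4.23 CPM, and KO libraries 1 to 5 had 4.02, 4.65, 3.49, 3.57 and 3.46 CPM. KO libraries 1, 3, 4 and 5 lay below every control library and KO library 2 lay within the control range. The log2 fold change was -0.33 (SE 0.118), a difference of -20.7% with a 95% interval from -33.6% to -5.29%. It had an unadjusted p of 0.0145 and did not pass after adjustment (adjusted p = 0.237 by edgeR). The counts behind it were 68 to 148 per library, the smallest of the 10 genes.

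As shares of the 3 alpha chains per kb, Lama4 made up 94.5% ± 0.750 in control and 95.4% ± 0.741 in KO libraries (SD, n = 5). Lama2 made up 4.92% ± 0.745 and 4.13% ± 0.687, and Lama5 made up 0.604% ± 0.0882 and 0.477% ± 0.0669. The ranges of the groups overlapped for all 3 chains.

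**Figure D2:**
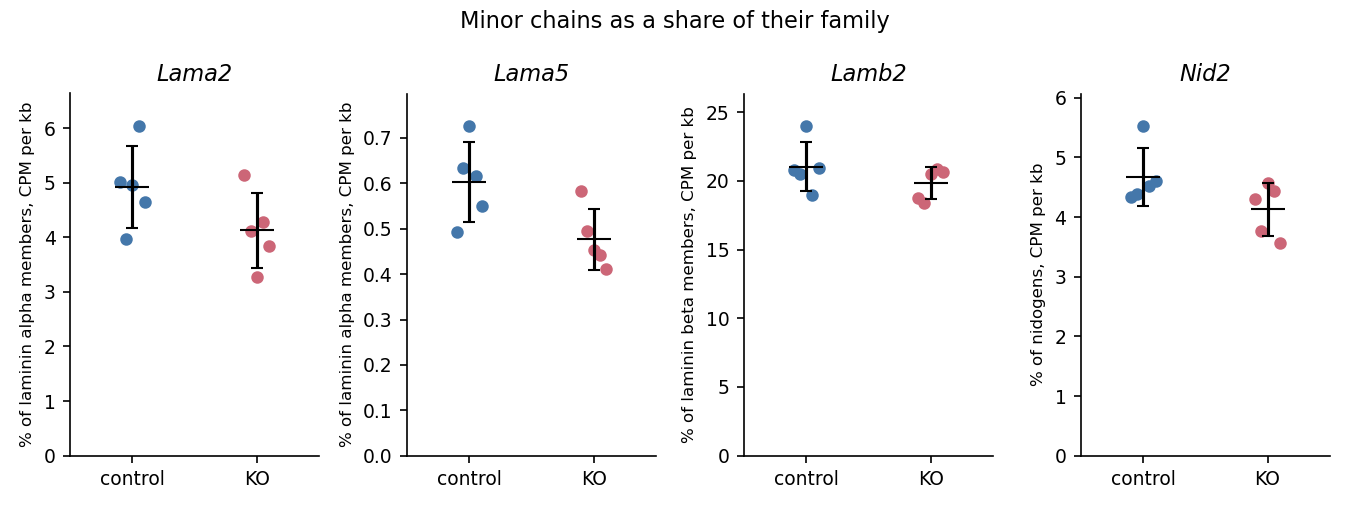
Share of the minor chains in their family, computed from CPM per kb in each library. Points are libraries, with mean and SD in black, and each axis starts at 0. The KO mean is lower in each panel (Lama5 0.604% to 0.477%, Nid2 4.67% to 4.13%), and the groups overlap in all 4.

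Of the beta chains, Lamb1 (ENSMUSG00000002900.18, chromosome 12, 31265234 to 31329644) is part of most laminins of early tissue and stroma, and Lamb2 (ENSMUSG00000052911.10, chromosome 9, 108479736 to 108490530) is its counterpart in laminins of vessel wall, kidney and synapse. Lamb1 had 742, 737, 624, 916 and 695 CPM across control libraries 1 to 5, against 837, 844, 685, 716 and 774 CPM across KO libraries 1 to 5. Every KO library lay within the control range. The log2 fold change was 0.05 (SE 0.0925, adjusted p = 0.906, 95% interval from -9.65% to 19.3%), and lay at 0.14 without control library 4 and 0.000336 without control library 3. Lamb2 had 113 to 132 CPM for controls and 108 to 124 CPM in KO libraries, the narrowest spread of the 10 genes, with a coefficient of variation of 5.88% and 4.77%. Its log2 fold change was -0.05 (SE 0.0490, adjusted p = 0.818), and the 95% interval from -9.99% to 4.30% was also the narrowest. The point estimate was -0.00756 without control library 4. Lamb2 made up 21.1% ± 1.81 of beta chain transcripts per kb in control and 19.8% ± 1.18 in KO libraries (SD, n = 5).

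Lamc1 (ENSMUSG00000026478.15, chromosome 1, 153218922 to 153332786), the gamma chain shared by most laminins, had 626, 584, 508, 781 and 642 CPM in control libraries 1 to 5. KO libraries 1 to 5 had 680.4, 733, 496, 684 and 701 CPM. KO library 3 lay below the other KO libraries and below all controls, while the remaining 4 KO libraries lay above 4 of the 5 controls. The log2 fold change was 0.07 (SE 0.116, adjusted p = 0.905, 95% interval from -11.9% to 24.8%), and lay at 0.16 without control library 4 and 0.0039 without control library 3.

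The nidogens differed in level and in their point estimates. Nid1 (ENSMUSG00000005397.9, chromosome 13, 13437551 to 13512269) had 1152, 1059, 952, 1401 and 1131 CPM across control libraries 1 to 5, against 1156, 1168, 883, 1046 and 1097 CPM across KO libraries 1 to 5. Its log2 fold change was -0.09 (SE 0.0987, adjusted p = 0.824), from -0.15 without control library 3 to -0.00204 without control library 4, and 4 of the 5 KO libraries lay within the control range. Within each group, the ratio of Nid1 to Lamc1 per kb was the steadiest of the ratios examined. It was 2.16 ± 0.0505 in control and lower, at 1.95 ± 0.123, in KO libraries (SD, n = 5). The ranges were 2.10 to 2.23 in control and 1.82 to 2.12 in KO libraries, and overlapped at their edges. The difference between the groups was not tested. Nid2 made up 4.67% ± 0.487 of nidogen transcripts per kb in control and 4.13% ± 0.442 in KO libraries (SD, n = 5).

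Nid2 (ENSMUSG00000021806.5, chromosome 14, 19751265 to 19811787) had the smallest p-value of the 10 genes. Control libraries 1 to 5 had 38.9, 36.1, 41.4, 49.4 and 40.7 CPM, and KO libraries 1 to 5 had 38.7, 34.0, 31.6, 36.2 and 30.2 CPM. KO libraries 2, 3 and 5 lay below all controls, and KO libraries 1 and 4 lay above control library 2. The log2 fold change of -0.27 (SE 0.0868, 95% interval from -27.4% to -5.73%) had an unadjusted p of 0.00798 and did not pass after adjustment (adjusted p = 0.173 by edgeR). Exons of Nid1 share 143 bases with an antisense gene, and Nid2 exons share 437 bases with the protein-coding gene Rtraf on the opposite strand.

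Hspg2 (ENSMUSG00000028763.19, chromosome 4, 137468769 to 137570630), which encodes perlecan, the main heparan sulfate proteoglycan of vascular basement membranes, varied most between libraries. It had 189, 168, 154, 237 and 177 CPM across control libraries 1 to 5, against 163, 178, 96.5, 139 and 174 CPM across KO libraries 1 to 5. Control library 4 was the highest and KO library 3 the lowest, and the other libraries of both groups lay between 139 and 189 CPM. The log2 fold change was -0.30 (SE 0.154, adjusted p = 0.480). With 1 library left out it ran from -0.37 (without KO library 2) to -0.18 (without KO library 3). Without control library 4 and KO library 3, a fit added after the data were seen, it was -0.07. Leaving out the highest control and the lowest KO library must move it towards 0. Without control library 4 and KO library 1, also added, it was -0.23. Hspg2 was lower at an unadjusted p under 0.05 by edgeR in some alternatives, among them those without control library 3, KO library 2 or KO library 5. Agrn (ENSMUSG00000041936.19, chromosome 4, 156165290 to 156197488), which encodes agrin, the organizer of the neuromuscular synapse that is also present in other basement membranes, had 33.5 to 41.5 CPM for controls and 32.0 to 41.8 CPM in KO libraries, with a log2 fold change of -0.11 (SE 0.0795, adjusted p = 0.660) that was -0.18 without KO library 5. Of the transcripts of these proteoglycans per kb, Hspg2 made up 75.7% ± 2.66 in control and 72.9% ± 4.37 in KO libraries (SD, n = 5).

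**Figure D3:**
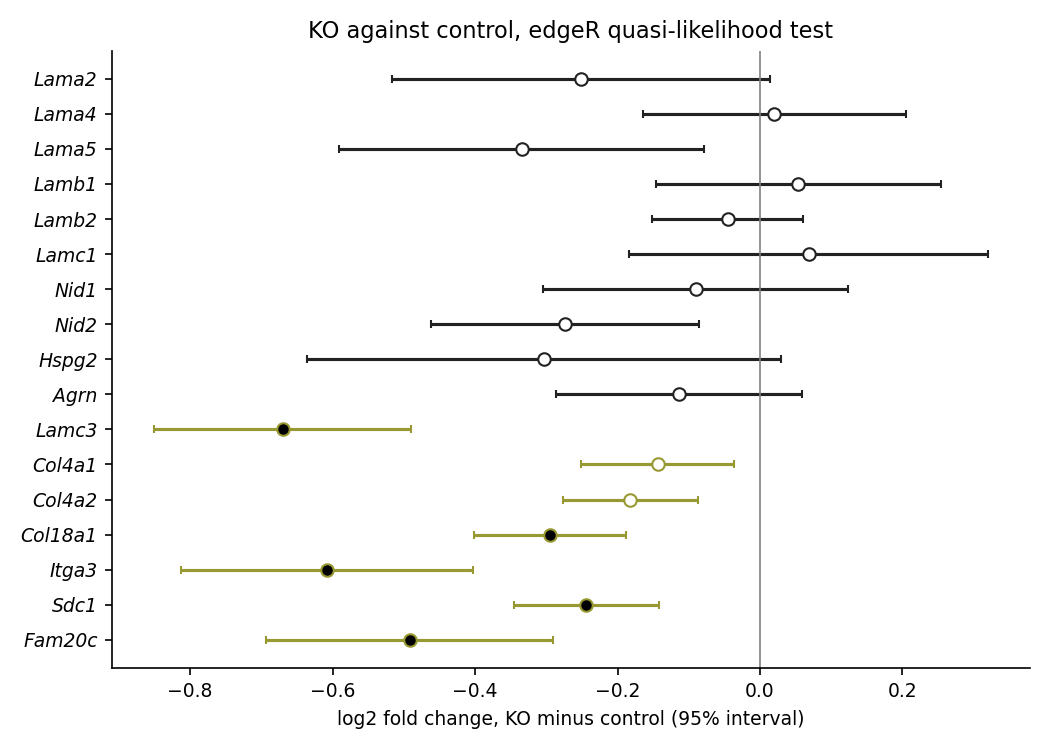
Log2 fold change of KO against control with its 95% interval for the 10 basement membrane genes (black) and 7 other genes named in the text (olive). Filled points passed an adjusted p of 0.05 by edgeR. The 10 genes lie between -0.33 and 0.07 with open points, and Lamc3, Col18a1, Itga3, Sdc1 and Fam20c are filled and below 0.

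Several libraries lay on 1 side of their group mean for all 10 genes. In control library 4 all 10 lay above the mean of their group, and their deviations averaged 0.22 on the log2 scale. In KO library 2 all 10 lay above it (mean 0.15), though Lamb2 (9.87e-05) and Nid2 (0.000368) lay practically at the mean. In KO library 3 all 10 lay below it (mean -0.23). Control library 3 had 7 of 10 below its group mean (mean -0.14). The other libraries averaged between -0.05 and 0.05. The same libraries stood out over the 3048 other tested genes whose longest transcript exceeds 5 kb, with median deviations of 0.11 in control library 4, 0.07 in KO library 2, -0.10 in KO library 3 and -0.10 in control library 3. The 3380 genes under 2 kb had -0.04, -0.03, 0.04 and 0.05 in these libraries. Of the 10 basement membrane genes, 9 have a transcript over 5 kb and Nid2 has one of 4876 bases. The part of transcript length in the deviations was not tested. Between genotypes, genes over 5 kb had a median log2 fold change of -0.01.

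**Figure D4:**
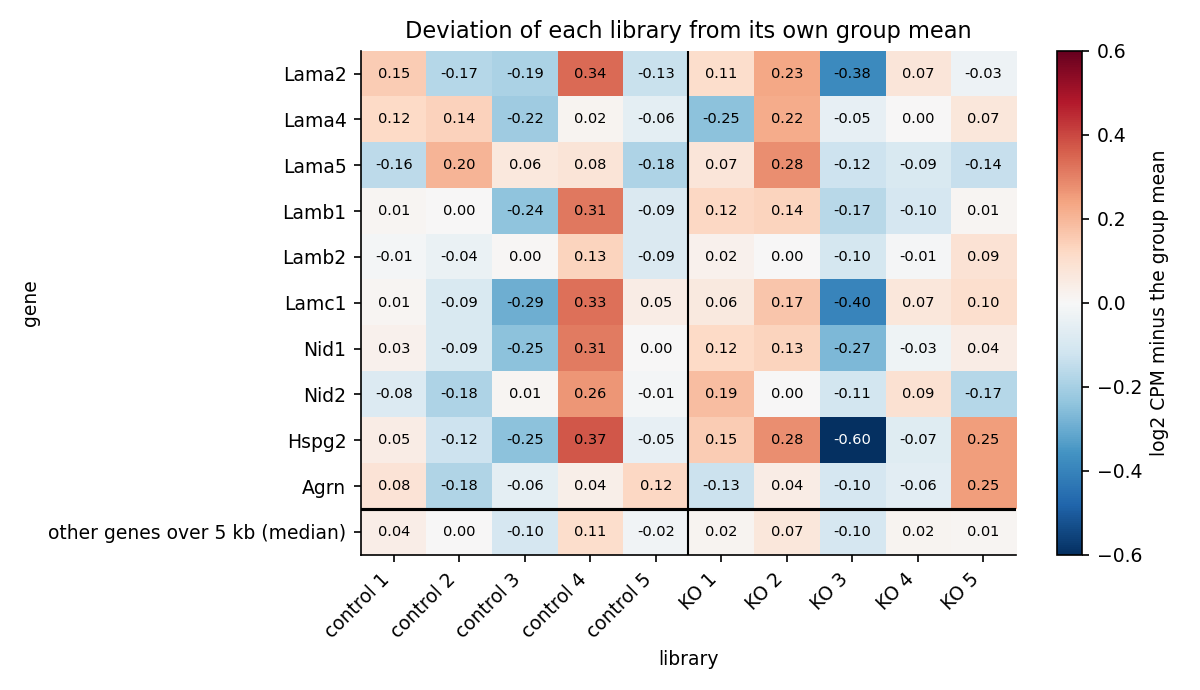
Log2 CPM of each gene minus the mean of its own group, by library, with the median of 3048 other genes over 5 kb in the bottom row. Control library 4 and KO library 2 are above 0 for all 10 genes, with Lamb2 and Nid2 in KO library 2 practically at 0. KO library 3 is below 0 for all 10, with the lowest value, -0.60, for Hspg2.

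Among the genes outside this group whose pattern over the 10 libraries was most like the mean of the 10 genes, of 12897 candidates, were Col6a3, a collagen VI chain, and Magi3, a junction scaffold. Their Pearson coefficients were 0.964 and 0.957 and their Spearman coefficients 0.758 and 0.891, given as a description of genes picked for likeness. They had log2 fold changes of -0.29 and -0.14, and neither passed the limit (adjusted p = 0.474 and 0.610 by edgeR).

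Among the laminin-type chains outside the 10 genes, 1 of 6 fell in KO and 0 rose. Lamc3, the laminin gamma 3 chain with a narrower distribution than Lamc1, had 28.1 to 37.6 CPM for controls and 19.7 to 23.4 CPM in KO libraries. It fell from 33.6 ± 4.17 to 21.1 ± 1.38 CPM (SD, n = 5), for a log2 fold change of -0.67 with an SE of 0.0835 (adjusted p = 0.000811), and passed in 19 of 19 alternatives. Its control level of 5.52 CPM per kb was far below that of Lamc1, and the difference between the fold changes of these gamma chains was not tested. Exons of Lamc3 share 382 bases with an antisense gene.

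Of the basement membrane collagens, 1 of the 5 tested fell and 0 rose, with all 5 point estimates below 0 and a median of -0.18. Col18a1, the source of endostatin, fell from 522 ± 23.5 to 426 ± 25.9 CPM (SD, n = 5), for a log2 fold change of -0.29 (adjusted p = 0.00651). Col4a1 and Col4a2, the main collagen IV chains, named here after their values were seen, had log2 fold changes of -0.14 and -0.18 with no overlap between groups (adjusted p = 0.225 and 0.0527 by edgeR), and Col4a2 passed in 5 of 19 alternatives. Of the other basement membrane proteins, 0 of 11 passed in either direction. Those with the smallest p-values were Papln, a papilin (log2 fold change -0.38, adjusted p = 0.102, and under the limit in 2 of 19 alternatives, with 0.0286 by DESeq2 and 0.0332 without a filter on low counts), and Pxdn, which crosslinks collagen IV (-0.23, adjusted p = 0.190).

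Of the receptors for laminins and proteoglycans, 2 of 18 fell and 0 rose. Itga3, the integrin alpha 3 subunit that binds laminins, fell from 15.7 ± 1.46 to 10.3 ± 1.32 CPM (SD, n = 5), for a log2 fold change of -0.61 (adjusted p = 0.0038). Sdc1, the cell surface proteoglycan syndecan 1, fell from 117 ± 5.34 to 98.8 ± 5.29 CPM (SD, n = 5), for a log2 fold change of -0.24 (adjusted p = 0.0152), and missed the limit in 3 of 19 alternatives (adjusted p = 0.0701 without KO library 2, 0.0517 without KO library 5 and 0.0659 with a replicate block). Dag1, the dystroglycan to which laminins and perlecan bind, had 479 ± 45.7 and 504 ± 25.7 CPM (SD, n = 5). Of the genes that build the laminin-binding glycans of dystroglycan or that make, modify or cleave heparan sulfate, 0 of 21 passed, with a median log2 fold change of 0.00. Glce, an enzyme of heparan sulfate synthesis, had a log2 fold change of 0.10 (adjusted p = 0.514).

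**Figure D5:**
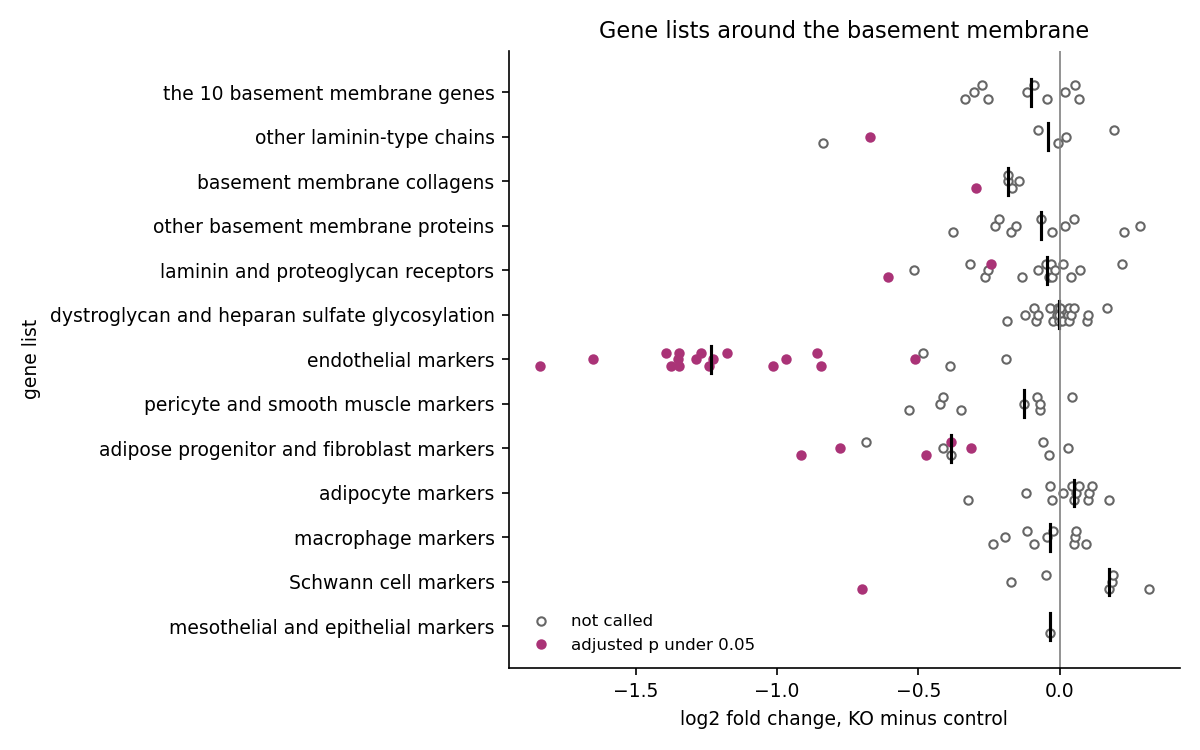
Log2 fold change of each tested gene by list, with the list median as a black bar and filled points for an adjusted p under 0.05 by edgeR. The medians are -0.10 for the 10 basement membrane genes and -1.23 for endothelial markers.

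Endothelial cells, which also make basement membrane, are among the other cells these cultures can hold. Of 20 endothelial markers, 17 fell and 0 rose, with a median log2 fold change of -1.23. Those with the smallest p-values were Cdh5 (-1.27), Robo4 (-1.65), Egfl7 (-1.24) and Emcn (-1.29). In these bulk cultures, fewer cells of a type and less RNA per cell cannot be told apart. Of the progenitor and fibroblast markers, 5 of 11 fell and 0 rose, led by Lum (-0.78), Cd34 (-0.91, also an endothelial gene), Pdgfra (-0.31) and Col3a1 (-0.47). Col3a1 missed the limit without control library 5, KO library 2 or KO library 5 (adjusted p = 0.0547, 0.063 and 0.0651 by edgeR). The summed level of the 11 markers was 5038 to 6504 CPM for controls and 4183 to 4975 CPM in KO libraries. This sum was largely Col3a1 (mean 2630 CPM in control and 1896 in KO) and Col1a1 (1406 and 1078). Dcn (832 and 811 CPM) and Ly6a (508 and 487 CPM) did not pass. The part of these cells in the point estimates of Lama5, Nid2 and Hspg2 was not tested.

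Markers of other cell types gave few calls. Of 9 pericyte and smooth muscle markers 0 passed, with Abcc9 (-0.42) and Kcnj8 (-0.53) at the smallest p-values and sums of 234 to 295 and 202 to 249 CPM. Of 13 adipocyte markers 0 passed, with Pparg (0.10) and Cfd (0.18) at the smallest p-values. Of 10 macrophage markers 0 passed, with Itgam (-0.23) and Fcgr1 (-0.19) at the smallest p-values and sums of 1371 to 2129 and 1207 to 2008 CPM. Of 7 Schwann cell markers 1 fell, Ngfr (-0.70), a receptor that stromal cells also carry, and 0 rose. Of the mesothelial and epithelial markers, Krt19 alone was high enough to test (-0.03), and Msln, Upk3b, Krt8, Krt18 and Epcam had at most 4 counts in a library.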

How the data were processed

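RNA-seq libraries of 5 control and 5 KO cultures were analysed. Per the study's methods, the authors used STAR to map read pairs against GRCm38.p6 (mm10 per the labels) and featureCounts to count fragments per gene. The deposited values are whole-number counts with a different total in each of 10 columns, 1 per library. From these counts, edgeR 4.0.16 (R 4.3.3) kept genes by filterByExpr (minimum count 10), applied TMM and tested KO against control by the quasi-likelihood test without pairing, with Benjamini-Hochberg adjustment over 14270 genes and a limit of 0.05. Each SE equals the absolute log2 change over the root of F. Log2 CPM used a prior count of 2. Levels per kb divide CPM by the exon union in GENCODE M21 (52125 of 56748 identifiers matched, without version). At the depths given, counting error is largest for Lama5. No column belonged to other samples (0).

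The 10 genes and the gene lists were chosen with earlier results of these data known. Named were the 10 genes, Fam20c, the 3 genes most alike, and from each list up to 4 called genes with the smallest adjusted p or, with none called, up to 2 with the smallest p. Some genes this rule names are not reported here. Dag1, Col1a1, Dcn and Ly6a were named after their values were seen. Alternatives were DESeq2 1.42.0 (Wald test without independent filtering, and its size factors), upper-quartile factors, other filters, limma 3.58.1 voom with quality weights, a replicate block, each library left out in turn, and, added after the data were seen, 2 fits without pairs of libraries that stood apart. The fits were checked on simulated counts. No protein sequences were used here.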

Additional observations from a re-analysis of the deposited data

Results flagged for a closer look

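Lamc1 in KO library 3 was flagged because it stood apart from its group, at 496 CPM against 680.4 to 733 CPM in the other KO libraries. The gap was 0.778 of the range of the group, above the 95% critical value of Dixon's ratio for 5 values (0.71). It was the only one of 20 groups (10 genes in 2 genotypes) above that value, and chance gives about 1 in 20. Without KO library 3, the log2 fold change of Lamc1 was 0.16 (adjusted p = 0.607 by edgeR).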

How the results depend on the processing

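The number of the 10 genes called, 0 lower and 0 higher, was the same in all 19 alternatives, 2 of them added after seeing the data. Their 190 log2 fold changes under these alternatives kept their direction and side of the limit in 186. Those that turned were Lama4, -0.0275 without control replicate 3 and -0.0325 without KO replicate 2 (range -0.0325 to 0.0812), and, without control replicate 4 and KO replicate 3 (added), Lamb2 at 0.0167 (range -0.0674 to 0.0167) and Nid1 at 0.0587 (range -0.145 to 0.0587). In that fit, Lamb1 and Lamc1 were higher at an unadjusted p under 0.05 (adjusted p = 0.194 and 0.0771 by edgeR). Over all alternatives, the lowest adjusted p of any of the 10 genes was 0.062 by edgeR, for Nid2 without control replicate 4 and KO replicate 1 (added). With 1 library left out, the lowest for Nid2 was 0.089. The cause was not tested.

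Over all genes, 265 were lower and 44 higher. The lower count was 359 with DESeq2's Wald test and 347 with limma voom. In the added fits it was 353 without control replicate 4 and KO replicate 1 and 319 without control replicate 4 and KO replicate 3. The higher count was 125 with DESeq2's Wald test, 111 with limma voom, 145 without control replicate 4 and KO replicate 1 and 155 without control replicate 4 and KO replicate 3. Leaving out 1 library gave 164 (without KO replicate 2) to 323 (without control replicate 4) lower and 19 (without control replicate 5) to 119 (without control replicate 4) higher genes. The share of calls that were lower was 85.8%, 74.2% with DESeq2 and 75.8% with voom. With the replicate block, 193 were lower and 21 higher, and 0 of the 10 genes passed. Replicate numbers come from the titles in both groups, and correlations of same-numbered libraries ran from -0.251 to 0.263, with 2 of 10 libraries closest to their own number, so the numbers were not taken as pairs. Krt19 (range -0.196 to 0.0821) turned to 0.0423, 0.0328 and 0.0821 without control replicate 4 and KO replicate 3, without control replicate 4 and without KO replicate 4. The longest transcript in place of the exon union moved Lama4 from 94.5% to 95.5% of alpha chains and Lamb2 from 21.1% to 14.4% of beta chains in control.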
